A study of Oryza sativa Japonica Group with 9 samples.

Results

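The genes described here encode enzymes of redox control and disulfide exchange in rice. They were taken by a rule on gene names that uses no expression value, although the rule was written with earlier results of these data known. A probe set that the array annotation pairs with exactly 1 gene was taken where a symbol or synonym of that gene begins with GRX, TRX, PDIL, APX, CATA, CATB, CATC, SOD, GST, PRX, POX, GPX, MDAR, MDHAR, DHAR, GR and a digit, or RBOH, with or without the prefix Os. This gave 72 of the 17905 genes that have a probe set of their own, read by 100 probe sets. The 72 comprised 18 glutaredoxins, 14 thioredoxins, 11 protein disulfide isomerase-like (PDI-like) proteins, 4 type II peroxiredoxins, 9 enzymes of the ascorbate-glutathione cycle, 6 catalases and superoxide dismutases, 6 glutathione S-transferases, 2 secretory peroxidases and 1 NADPH oxidase. The remaining gene, OsTrx1 (LOC4346464), matched by name only: its other names mark it as a SET domain gene of the trithorax type, a histone methyltransferase family, and it is not counted with the thioredoxins.

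RNA came from greenhouse-grown wild-type rice (Oryza sativa ssp. japonica, cultivar Katy) at 3 stages, with 3 biological replicates and so 3 arrays for each. The stages were unfertilized egg cells from open flowers (0 hours after pollination), fertilized egg cells after pollination on the plant (about 1 hour, given as 1 to 1.5 hours in the series text) and zygotes (about 3 hours, given as 2.5 to 3 hours). The comparison covers the time before and soon after the gametes and then their nuclei fuse. Each sample pooled about 100 cells dissected without enzymes, an estimated 2.5 ng of RNA, which was amplified in 2 cycles, so every value is a mean over a pool of cells whose stage was set by the time since pollination. A free-text label field names seedlings, pollen and sperm cells in place of these stages; the groups here follow the titles, the stage labels and the series text.

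Reactive oxygen species are by-products of metabolism and also signals, and cells hold them in check with enzymes that draw on ascorbate, glutathione and thiol groups. Superoxide dismutases turn superoxide into hydrogen peroxide, which catalases, ascorbate peroxidases and peroxiredoxins remove. Thioredoxins and glutaredoxins reduce disulfide bonds and glutathione adducts in other proteins, whereas PDI-like proteins form and rearrange disulfide bonds in proteins that fold in the endoplasmic reticulum. NADPH oxidases at the plasma membrane have superoxide as their main product. In flowering plants this chemistry is known for its part in pollen tube growth and in the meeting of the gametes.

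Expression was read as a MAS5 signal, a linear intensity for each probe set and array, scaled so that every array had the same trimmed mean of 500; a level is therefore relative to the rest of the same array, and less RNA per cell cannot be seen in it. Differences are given on the log2(signal + 15) scale, which understates those of dim probe sets, with the standard error (SE) and adjusted p of a limma fit over the 28597 rice probe sets whose mean reached the median. A member was called where its p, adjusted over all those probe sets, was under 0.05. Of the 72 members, 68 passed this filter; the 4 that did not were the glutaredoxins GRXC10 (14.2 to 92.6 over the 9 arrays), GRXC15 (1.50 to 26.3) and GRXC1 (2.48 to 24.7) and the peroxidase PRX74 (4.64 to 138). A gene is described by its probe set with the highest mean log2 signal, and signals of different probe sets are not comparable as transcript amounts.

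The arrays differed beyond their stage. The ratio of poly-A to hybridization spike controls ran from 0.0522 to 0.0866 in egg cells, from 0.234 to 0.579 in fertilized eggs and from 0.224 to 1.09 in zygotes. Zygote replicate 2 stood apart, its median correlation with the rest being 0.684, against 0.843 to 0.916 for the other 8. The log2 ratio of 3' to 5' probe sets of 3 control genes was 8.62 in fertilized egg replicate 3 and 8.15 in zygote replicate 2, against 5.93 to 6.99 on the other 7 arrays. RNA quality and amplification cannot be told apart in this ratio. Of 7 egg and zygote marker names sought, 2 were matched in the annotation and EC1, ECA1, ECS1, RKD and BBM1 were not: WOX8, a homeobox gene, had mean signals of 260.2 ± 21.8, 235 ± 71.7 and 394 ± 80.9 (SD, n = 3) in egg, fertilized egg and zygote, and WOX9 averaged 24.3, 26.3 and 61.97. Summed signals of markers of other tissues were well above 0 at every stage, at 12988 to 21711, 14678 to 19531 and 2848 to 14731 for 4 of 6 photosynthetic genes and at 30578 to 51007, 30138 to 36119 and 18586 to 37952 for 4 of 4 genes of the ovule wall. For 3 of 3 endosperm and storage genes they were 10439 to 18790.1, 15574 to 41866 and 11123 to 24516. The summed signal of 5 of 5 anther and pollen genes did not overlap between egg (4148 to 4609) and fertilized egg (6731 to 8820) and was 3642 to 5194 in zygotes, and most of it came from MTR1. The part of these differences in the results below was not tested, except that the spike ratio was entered in an added fit. Since that ratio did not overlap between egg and either later stage, differences from the egg in that fit are extrapolated, and stage and ratio cannot be told apart there.

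Among the 68 members, 1 was called: OsPDIL2-3, a PDI-like gene, fell from egg to zygote. No member was called over the 3 stages (limma F test), from egg to fertilized egg or from fertilized egg to zygote, where 0.0629%, 0.042% (0.0035% higher and 0.0385% lower) and 0% of all probe sets were called; from egg to zygote 0.0699% were, all of them lower. At an unadjusted p under 0.05, 9 members differed between egg and fertilized egg (13.2%, against 8.9% of all probe sets), 8 between fertilized egg and zygote (11.8%, against 10.6%) and 12 between egg and zygote (17.6%, against 16%). Member shares here count 1 probe set per gene, while the others count every probe set above the filter. The median member was also brighter and varied less within a stage than the median gene, as given below, so the shares are not on equal terms. A fit with array quality weights, in which noisier arrays count less, called 4 members higher and 2 lower in fertilized eggs than in eggs, beside 1.99% and 2.37% of all probe sets (4.36% together), and 1 higher and 1 lower in zygotes than in eggs, beside 0.815% and 1.17%. It called 7 members over the 3 stages, beside 5.49% of all probe sets, and none between fertilized egg and zygote, where it called 0% overall. With the spike ratio in the model 3 members were called over the 3 stages, 3 between fertilized egg and egg, 1 between zygote and fertilized egg and 2 between zygote and egg, beside 2.79%, 2.94%, 0.885% and 4.01% of all probe sets.

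**Figure D1:**
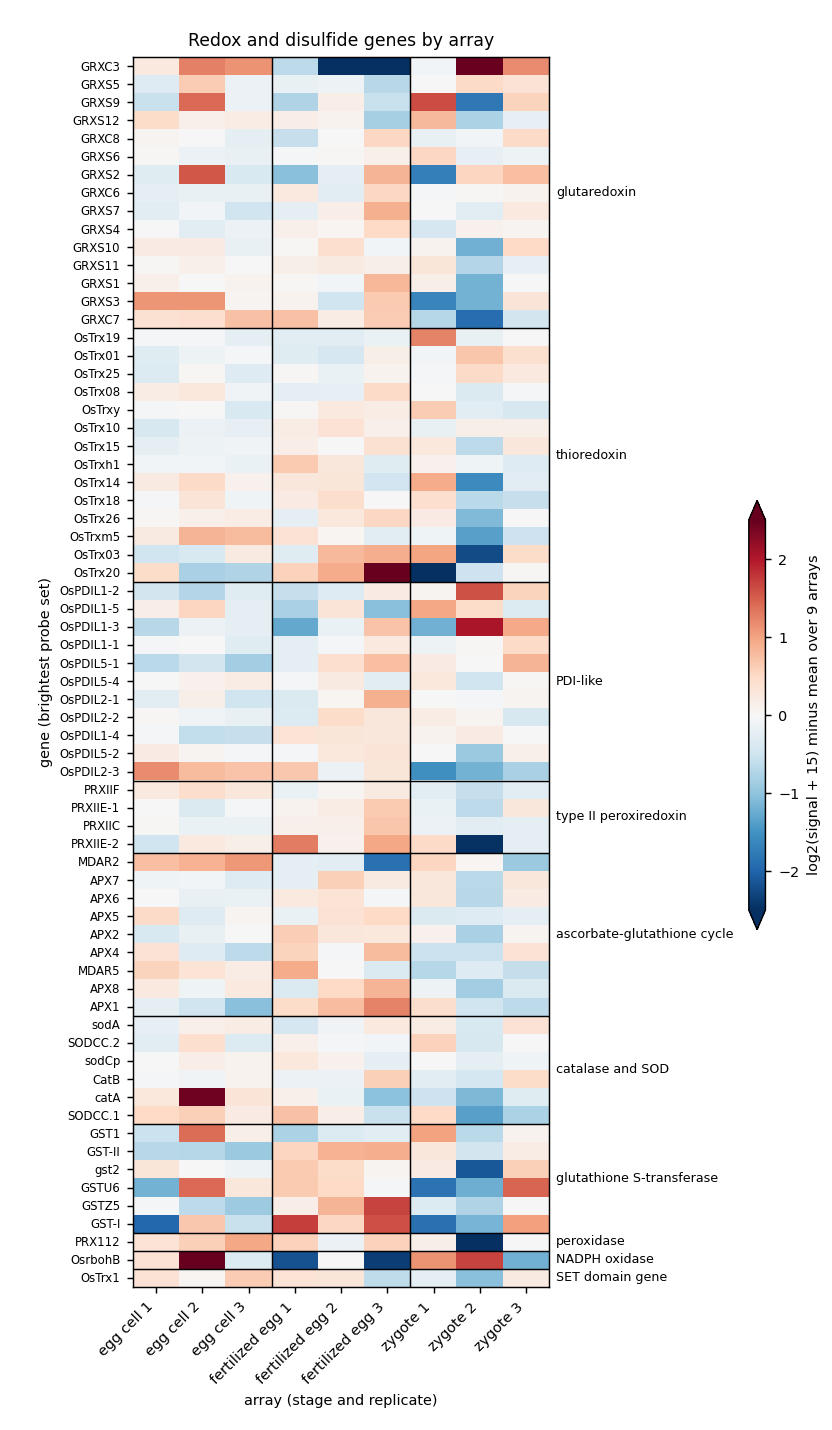
Each row is a redox gene that passed the filter (68 rows, grouped by enzyme class and within a class by the difference between zygote and fertilized egg) and each column an array; colour gives log2(signal + 15) minus the row's mean over the 9 arrays, red above and blue below, with the darkest shades also standing for values beyond the scale. OsPDIL2-3 turns from red in egg cells to blue in zygotes, GRXC3 is blue in the fertilized eggs, and many rows are blue in zygote replicate 2.

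As a set, the members had a median slightly above the egg level in fertilized eggs and close to the egg level in zygotes. The log2 difference between fertilized egg and egg was above 0 in 43 of 68 members (50.8% of all 15342 genes kept), with a median of 0.12 against 0.01 over all genes. Between zygote and fertilized egg it was above 0 in 19 of 68 (44.8% of all genes), with a median of -0.30 against -0.07. Between zygote and egg it was above 0 in 28 of 68 (45.5% of all genes), with a median of -0.06 against -0.08. The first and second of these comparisons share the fertilized egg arrays, so a level that is high in those arrays enters both, with opposite sign. Zygote replicate 2 weighs on the set: the median deviation of the members from their own means was -0.50 on that array, against -0.13 over all genes, and -0.12 to 0.24 on the other 8. Without it the median between zygote and fertilized egg was -0.11, against 0.02 over all genes, and that between zygote and egg was 0.12. Fertilized egg replicate 3 had the highest median deviation, 0.24. Without that replicate the median between fertilized egg and egg was 0.05, with 39 of 68 above 0.

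The arrays of 2 stages were fully apart in a minority of members. In 14 members all 3 fertilized egg arrays lay above all 3 egg arrays and in 5 below (14.1% and 12.3% of all genes). In 2 members the zygote arrays all lay above the fertilized egg arrays and in 11 below (5.6% and 8.08% of all genes). In 5 members the zygote arrays all lay above the egg arrays and in 9 below (10.6% and 10.4%). The fertilized egg arrays were the 3 highest of the 9 in 7 members, or 10.3%, against 2.84% of all genes; these were OsPDIL1-4, APX1, APX2, GST-II, GSTZ5, PRXIIC and OsTrx20. The 2 shares are not on equal terms, since the median member was brighter than the median gene (mean log2 signal of 11.23 against 9.70) and varied less within a stage (SD 0.41 against 0.56). In OsTrx20, GST-II, GSTZ5, APX1 and PRXIIC the highest of these arrays was fertilized egg replicate 3, the one with the high 3' to 5' ratio, whose part was not tested. The probe sets of APX2 differed in sign between zygote and fertilized egg. No member had its 3 highest arrays in the zygote (2.61% of all genes), and OsPDIL2-3, GRXC7 and PRXIIF had their 3 lowest there (2.73%). The egg arrays were the 3 highest in OsPDIL2-3, MDAR2, catA and PRXIIF (4.33% of all genes) and the 3 lowest in OsPDIL5-1, OsPDIL1-4 and GST-II (4.23%). GRXC3 alone had its 3 lowest arrays in the fertilized egg (1.49%).

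Glutaredoxins are small proteins that use glutathione to reduce disulfides or, in some of their classes, carry iron-sulfur clusters. Of the 18, 15 passed the filter, and none was called. Their median log2 difference was 0.04 between fertilized egg and egg, -0.15 between zygote and fertilized egg and -0.11 between zygote and egg, with 9, 6 and 7 of 15 above 0. None of these medians kept its sign in all 9 fits that left out 1 array: they ran from -0.09 to 0.11, from -0.38 to 0.01 and from -0.28 to 0.14. GRXC3 (LOC4329462), also named ROXY2 and so a relative of the Arabidopsis ROXY glutaredoxins that act in petal and anther development, had signals of 168, 359 and 323 (egg), 84.3, 5.59 and 10.2 (fertilized egg) and 135, 848 and 338 (zygote). Every fertilized egg array lay below every other array, and in fertilized egg replicates 2 and 3 the signal was near the offset. The log2 difference was -2.94 (SE 0.78, adjusted p = 0.32) between fertilized egg and egg, or 7.66-fold lower on the log2(signal + 15) scale, and 3.26 (SE 0.78, adjusted p = 0.265) between zygote and fertilized egg. With array weights the first of these passed, at -3.02 (SE 0.53, adjusted p = 0.00749). The largest fertilized egg weight, 2.26, was that of replicate 2, the lowest array, with a signal of 5.59. The probe set of GRXC3 is of the kind whose suffix in the maker's naming marks probes shared by several transcripts or genes.

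GRXC7 (LOC4338050) was dim, with 129, 133 and 169 (egg), 168, 111 and 157 (fertilized egg) and 52.2, 14.5 and 66.1 (zygote). All 3 zygote arrays lay below the other 6, at a log2 difference of -1.54 (SE 0.60, adjusted p = 0.268) from the egg and -1.54 (SE 0.60, adjusted p = 0.414) from the fertilized egg. Both were -1.10 without zygote replicate 2. GRXS5 (LOC4326324) had 10578, 20699.7 and 11999.7 (egg), 11679.6, 12157 and 8269 (fertilized egg) and 13317, 18659.9 and 17068 (zygote). Its zygote arrays lay above the fertilized egg arrays by 0.62 (SE 0.30, adjusted p = 0.501), while the egg arrays spanned both. GRXC6 (LOC4336354) varied little within the egg, with 24465, 25234 and 25028, and had 33816, 23872 and 40901 in fertilized eggs and 27799.7, 28921 and 30358 in zygotes. Its zygote arrays all lay above its egg arrays, at a log2 difference of 0.22 (SE 0.25, adjusted p = 0.672), but this turned to -0.54 after quantile normalization. GRXS11, with 11699, 12488 and 11411 (egg), 12686, 13356 and 12681 (fertilized egg) and 14146, 6904 and 10038 (zygote), had its fertilized egg arrays just above its egg arrays, while its zygote arrays lay on both sides of them. A second probe set of GRXS11 had the lower mean in fertilized eggs, with 3124, 2784 and 3774 (egg) against 2237, 2903 and 1162 (fertilized egg), and overlapped.

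Thioredoxins carry electrons from NADPH or, in plastids, from ferredoxin to disulfides in target proteins. All 14 passed the filter and none was called. Their median log2 difference was 0.17 between fertilized egg and egg (9 of 14 above 0), -0.27 between zygote and fertilized egg (3 of 14) and -0.03 between zygote and egg (6 of 14). Without zygote replicate 2 the second was -0.03, with 6 of 14 above 0, and the third 0.14. Without zygote replicate 1 they were -0.46 and -0.16, and without egg replicate 2 the first was 0.30. OsTrx20 (LOC4339117) had signals of 1672, 688 and 712 (egg), 1819, 2325 and 12199 (fertilized egg) and 116, 839 and 1242 (zygote). The fertilized egg arrays were the 3 highest, but fertilized egg replicate 3 lay far above the other 2 and zygote replicate 1 far below its own group. The log2 difference was 1.97 (SE 0.84, adjusted p = 0.532) between fertilized egg and egg, and 1.12 without fertilized egg replicate 3. Between zygote and fertilized egg it was -2.85 (SE 0.84, adjusted p = 0.327). Without zygote replicate 1 this became -1.85.

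OsTrxm5 (LOC9270622), named as an m-type thioredoxin, a plastid form, had 198, 313 and 302 (egg), 219, 175 and 136 (fertilized egg) and 154, 56.0 and 113 (zygote). The zygote arrays all lay below the egg arrays, at a log2 difference of -1.28 (SE 0.54, adjusted p = 0.284), and zygote replicate 2 was the lowest; without it the difference was -0.93. The summed photosynthetic markers were also lowest on that array, at 2848, and their part in this difference was not tested. CAB2R, which made up most of the sum on the other arrays, PETE and CHL1 were each lowest there, but RBCS was highest there, at 402. A second probe set of OsTrxm5 did not share the fall. Its log2 difference was 0.09 between zygote and egg, and 0.43 between zygote and fertilized egg, against -0.71 for the first set. OsTrx15, with 18703, 20089 and 20539 (egg), 24582, 21508 and 28243 (fertilized egg) and 26099, 13894 and 26509.6 (zygote), was above its egg range in every later array but zygote replicate 2. OsTrx08 ran from 4197 to 7528 over the 9 arrays with overlapping groups. OsTrx14 had 5811, 6941 and 5337 (egg), 6066, 6157 and 3557 (fertilized egg) and 9470.1, 1643 and 4107 (zygote), so that the zygote replicates held both its highest and its lowest array.

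PDI-like proteins contain thioredoxin-like domains and work on disulfides of proteins entering the secretory path. All 11 passed the filter, and their medians were 0.11, -0.03 and 0.21 in the comparisons of fertilized egg with egg, zygote with fertilized egg and zygote with egg. In the 9 fits that left out 1 array they ran from 0.04 to 0.44 (the highest without fertilized egg replicate 1), from -0.19 to 0.17 and from 0.06 to 0.39. OsPDIL2-3 (LOC4347226) had signals of 4383, 3336 and 3183 (egg), 3082, 1752 and 2397 (fertilized egg) and 653, 848 and 1097 (zygote). No array of one stage reached into the range of another, and the order was egg, fertilized egg, zygote. From egg to zygote it fell by 2.07 on the log2 scale (SE 0.33, adjusted p = 0.0483), a 4.19-fold lower level. The steps between were -0.61 (SE 0.33, adjusted p = 0.625; -0.40 without fertilized egg replicate 2) to the fertilized egg and -1.46 (SE 0.33, adjusted p = 0.256) from there to the zygote, neither of which passed. The call is close to the threshold: the adjusted p was 0.0525 to 0.369 in the alternatives that lost it, among them 8 of the 9 fits that left out an array, while the difference stayed between -1.50 and -2.25 in all of them. This gene has 1 probe set, whose suffix marks probes that may also match other transcripts.

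OsPDIL5-1 (LOC4332486) went the other way, with 2416, 2814 and 2098 (egg), 3249, 5211 and 6535 (fertilized egg) and 4465, 3915 and 7026 (zygote). The egg arrays were the 3 lowest, and the later stages overlapped. The log2 difference from the egg was 0.98 in fertilized eggs (SE 0.33, adjusted p = 0.443) and 1.03 in zygotes (SE 0.33, adjusted p = 0.228), or 1.97-fold and 2.04-fold. Both passed with array weights, at 1.02 (adjusted p = 0.0226) and 1.34 (adjusted p = 0.0431). Zygote replicate 3, the highest zygote array, also had the largest zygote weight, 1.03. OsPDIL1-4 (LOC4327971) had 475, 317 and 326 (egg), 626, 612 and 598 (fertilized egg) and 523, 571 and 495 (zygote). Its stages did not overlap and the fertilized egg arrays were the highest, but the log2 difference between fertilized egg and egg, 0.72 (SE 0.37, adjusted p = 0.612), did not pass, nor did that between zygote and egg, 0.51 (adjusted p = 0.496).

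OsPDIL1-2 (LOC4335906) was dim, with 117, 94.1 and 132 (egg), 107, 129.7 and 195 (fertilized egg) and 176, 536 and 252 (zygote), and its zygote arrays lay above its egg arrays by 1.24 (SE 0.56, adjusted p = 0.304), or by 0.81 without zygote replicate 2. OsPDIL2-1 (LOC4337858) overlapped between stages, with means of 7915 ± 1829, 10904 ± 4989 and 9006 ± 386 (SD, n = 3). A second probe set of OsPDIL2-1 went the other way between fertilized egg and egg, at -0.42 against 0.39 for the first. Between zygote and egg the second set had -0.39 against 0.21. OsPDIL5-4 had means of 4098 ± 290.1, 3801 ± 653 and 3759.8 ± 953, again with overlap. PDI-like genes of rice carry numbers from more than 1 naming scheme, so the identifiers given here, not the numbers, fix which gene is meant.

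**Figure D2:**
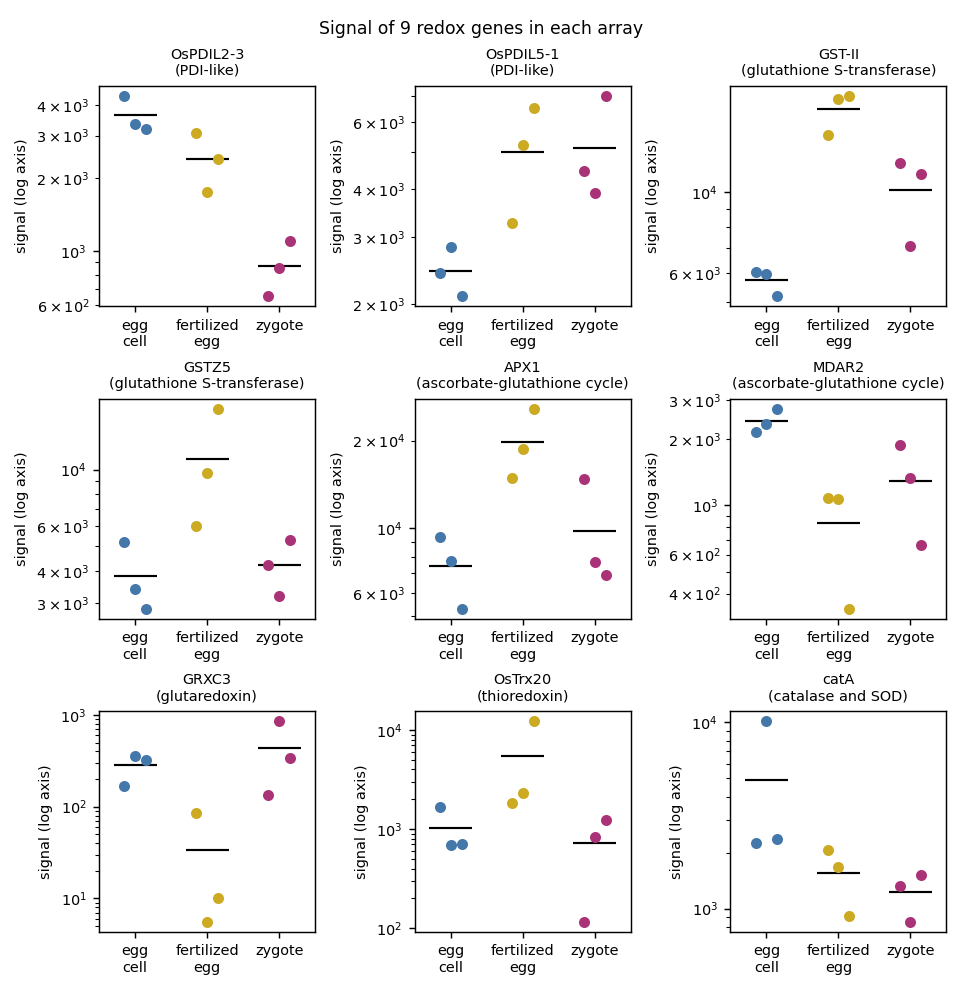
Signal (log axis, a separate scale in each panel) of 9 members in each of the 9 arrays, with points for the 3 replicates of a stage and a bar at their mean. The 3 points of each stage are apart in OsPDIL2-3, the fertilized egg points are highest in GST-II, GSTZ5, APX1 and OsTrx20 and lowest in GRXC3, and catA is raised by 1 egg array at 10127.

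Type II peroxiredoxins reduce peroxides through a cysteine that thioredoxins or glutaredoxins then restore. All 4 were measured and none was called, and all 4 were below 0 between zygote and fertilized egg, with a median of -0.51, or -0.33 without fertilized egg replicate 3. PRXIIC (LOC4325511), the cytosolic form, had 16236, 14130.4 and 14105 (egg), 17337, 17248 and 25534 (fertilized egg) and 14390.3, 13158 and 13479 (zygote). The fertilized egg arrays were the 3 highest, and egg and zygote overlapped. A second probe set of the same gene gave 4049.6, 3349 and 2773, then 6086, 5723 and 5507, then 3373, 4422 and 2903, and its fertilized egg arrays were also the 3 highest. PRXIIE-1, of the plastid form, had 6657, 5112 and 6466 (egg), 7007, 7560.4 and 10365 (fertilized egg) and 5914, 4183 and 7999 (zygote), with zygote replicate 3 inside the fertilized egg range. PRXIIF (LOC4324376), the mitochondrial form, had 5824, 6652 and 6017 (egg), 4401, 5191 and 5765 (fertilized egg) and 4112, 3303 and 4070.3 (zygote). Its stages did not overlap and lay in descending order, with a log2 difference of -0.27 (SE 0.25, adjusted p = 0.782) between fertilized egg and egg, or -0.17 without fertilized egg replicate 1. That step is the smaller part of the fall. The zygote arrays lay further below the egg arrays, at 3303 to 4112 against 5824 to 6652, a difference that was not called either.

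The ascorbate-glutathione cycle removes hydrogen peroxide at the cost of ascorbate, which monodehydroascorbate reductases restore. Its 9 members here were 7 ascorbate peroxidases and the reductases MDAR2 and MDAR5, and none was called. Their median log2 difference was 0.29 between fertilized egg and egg (7 of 9 above 0), -0.60 between zygote and fertilized egg (1 of 9) and -0.04 between zygote and egg (3 of 9). Leaving out 1 array gave 0.15 (without fertilized egg replicate 2) to 0.46 (without fertilized egg replicate 1) for the first, -0.71 to -0.48 for the second, and -0.34 (without zygote replicate 3) to 0.11 (without zygote replicate 2) for the third. APX1 (LOC4332474), a cytosolic ascorbate peroxidase, had 9364, 7699 and 5294 (egg), 14892, 18702 and 25761 (fertilized egg) and 14800.3, 7689.6 and 6928 (zygote). The fertilized egg arrays were the 3 highest, although zygote replicate 1 came just below the lowest of them. The log2 difference was 1.41 (SE 0.35, adjusted p = 0.278) between fertilized egg and egg, or 2.66-fold, and -1.06 (SE 0.35, adjusted p = 0.361) between zygote and fertilized egg. With array weights the first passed, at 1.38 (SE 0.27, adjusted p = 0.0113).

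APX2 (LOC4344397), the other cytosolic form, had 12436, 14235 and 16307 (egg), 24892, 19649 and 19454 (fertilized egg) and 17536, 9272 and 16898 (zygote). Its fertilized egg arrays were also the 3 highest, and zygote replicate 2 was the lowest. Over the 4 probe sets of APX2 the log2 difference ran from 0.44 to 1.79 between fertilized egg and egg. It ran from -0.83 to 0.39 between zygote and fertilized egg and from -0.39 to 0.98 between zygote and egg, so the later fall was not seen in all of them. APX4 (LOC4346247), a peroxisomal form, had 14334, 8899 and 7092 (egg), 16332, 10868 and 19263 (fertilized egg) and 7644, 7638 and 14329 (zygote), with overlap between all stages. MDAR2 (LOC4330469) was highest in egg cells, with 2149, 2340.5 and 2737 (egg), 1077, 1069 and 341 (fertilized egg) and 1870.4, 1328 and 662 (zygote). The egg arrays were the 3 highest, and fertilized egg and zygote overlapped. The log2 difference from the egg was -1.68 (SE 0.49, adjusted p = 0.367) in fertilized eggs and -1.01 (SE 0.49, adjusted p = 0.329) in zygotes, where it was -0.60 without zygote replicate 3. The first passed with array weights, at -1.38 (adjusted p = 0.0236). Fertilized egg replicate 3, the array with the highest 3' to 5' ratio, was the lowest at 341, and its part was not tested.

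Catalases break down hydrogen peroxide in peroxisomes, and superoxide dismutases act in several compartments according to their metal. The 6 members were 2 catalases and 4 superoxide dismutases, none of them called, with class medians of -0.08, -0.18 and -0.14 in the comparisons of fertilized egg with egg, zygote with fertilized egg and zygote with egg. Without zygote replicate 2 the last 2 medians were -0.03 and -0.02, and without zygote replicate 3 they were -0.31 and -0.28. The catalase catA (LOC4328073) had 2254, 10127 and 2353 (egg), 2064, 1670.1 and 915 (fertilized egg) and 1315, 850.0 and 1511 (zygote). The egg arrays were the 3 highest, but egg replicate 2 lay far above the rest, and both further probe sets of catA were also highest on that array, at 6684 and 418. The log2 difference between zygote and egg was -1.65 (SE 0.54, adjusted p = 0.23), and that between fertilized egg and egg, -1.35 (adjusted p = 0.499), was -0.64 without egg replicate 2, which also took the former to -0.94. The catalase CatB (LOC4342124) had 9001, 8842 and 9927 (egg), 8382, 8493 and 14091 (fertilized egg) and 7721, 6885 and 12858 (zygote), with overlapping stages. A second probe set of CatB had 10246, 9963 and 8162 (egg), 8349.6, 7045 and 4611 (fertilized egg) and 8183, 4046 and 2982 (zygote), at a log2 difference of -1.02 between zygote and egg (SE 0.37, adjusted p = 0.251) against -0.07 for the first. Over the 4 probe sets of CatB above the filter, the log2 difference between zygote and egg ran from -1.02 to 0.09. The superoxide dismutase sodA, the manganese form of mitochondria, ran from 9304 to 16062 with overlap at every stage. SODCC.1 (LOC4332846), a cytosolic copper-zinc form, had 15165, 16065 and 12296 (egg), 17834, 11926 and 7295 (fertilized egg) and 15096, 4147 and 6204 (zygote), with zygote replicates 2 and 3 and fertilized egg replicate 3 below the others.

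Glutathione S-transferases join glutathione to other molecules, among them toxic products of oxidation. None of the 6 was called. Their median log2 difference was 0.88 between fertilized egg and egg (5 of 6 above 0), -0.87 between zygote and fertilized egg (1 of 6 above 0) and -0.13 between zygote and egg. The first ran from 0.75 to 1.10 in the 9 fits that left out 1 array. Without zygote replicate 2 the second was -0.55, with 2 of 6 above 0, and the third 0.27, and without zygote replicate 3 they were -1.40 and -0.53. GST-II (LOC4326887) had 6031, 5962 and 5182 (egg), 14331, 17941 and 18353 (fertilized egg) and 11987, 7122 and 11187 (zygote). The stages did not overlap in any pair, and the fertilized egg was highest. The log2 difference between fertilized egg and egg was 1.55 (SE 0.27, adjusted p = 0.0907), or 2.93-fold, which missed the threshold. It passed with array weights (adjusted p = 0.00032), after quantile normalization (0.048), when just the egg and fertilized egg arrays were fitted (0.0175), and without zygote replicate 1 (0.0472) or 2 (0.0212). The other steps were -0.77 (SE 0.27, adjusted p = 0.379) from fertilized egg to zygote and 0.78 (SE 0.27, adjusted p = 0.244) from egg to zygote.

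GSTZ5 (LOC4332455), named as a zeta-class transferase, a class known for tyrosine breakdown, had 5220.4, 3416 and 2847 (egg), 6008, 9695 and 17354 (fertilized egg) and 4215, 3195 and 5295 (zygote). The fertilized egg arrays were the 3 highest, and egg and zygote covered nearly the same range. The log2 difference was 1.43 (SE 0.39, adjusted p = 0.331) between fertilized egg and egg and -1.27 (SE 0.39, adjusted p = 0.333) between zygote and fertilized egg. The first passed with array weights, at 1.29 (adjusted p = 0.0263). GST1 had 349.6, 1372 and 568 (egg), 290.4, 401 and 422 (fertilized egg) and 1038, 316 and 542 (zygote), and its stages overlapped. For GST-II, GSTZ5, APX1, MDAR2, OsPDIL5-1 and GRXC3, whose fertilized egg arrays stood apart from the egg arrays, the spike ratio and the summed anther and pollen markers also did not overlap between those stages, as given above, and the part of the markers in these differences was not tested. Among these markers only MTR1 was apart, at 2770 to 3636 in egg and 5741 to 7328 in fertilized egg. MSP1, INP1, TDR and PAIR1 overlapped between the 2 stages.

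**Figure D3:**
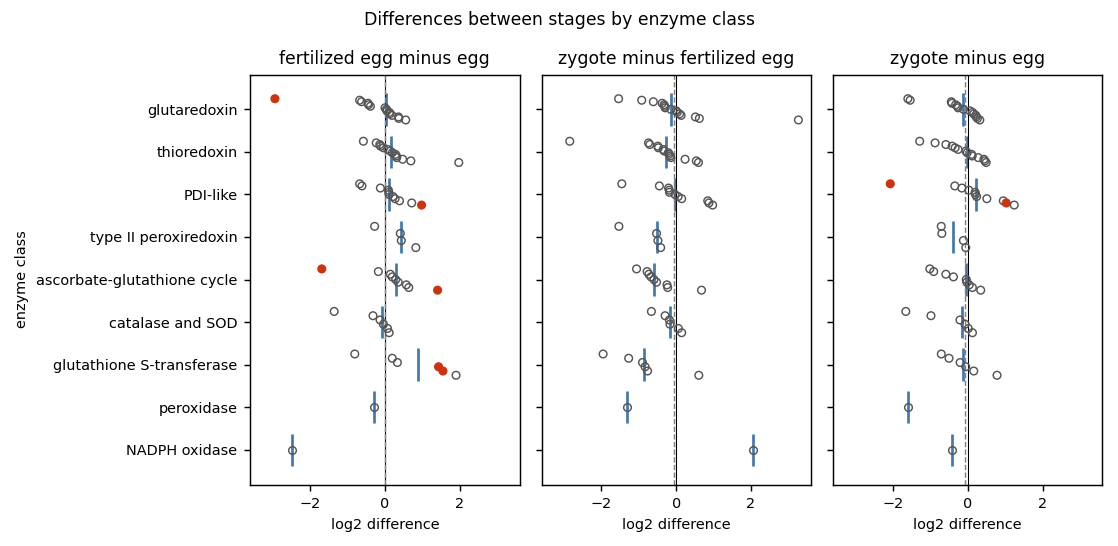
Log2 difference of each member for the 3 comparisons, 1 point per gene by enzyme class, with a blue bar at the class median and a dashed line at the median of all genes; filled red points passed an adjusted p of 0.05 with array weights, and the height within a class only separates points. The class medians of the glutathione S-transferases (0.88) and of the ascorbate-glutathione cycle (0.29) lie above 0 between fertilized egg and egg and below 0 between zygote and fertilized egg (-0.87, or -0.55 without zygote replicate 2, and -0.60).

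The last classes were small. PRX112 (LOC4344279), a peroxidase of the secretory type that acts on cell wall phenols among other substrates, had 416, 498 and 645 (egg), 494, 294 and 489 (fertilized egg) and 361, 25.8 and 326 (zygote). The zygote arrays all lay below the egg arrays, at a log2 difference of -1.60 (SE 0.74, adjusted p = 0.311), and zygote replicate 2 was far below the other 2; without it the difference was -0.56. The NADPH oxidase OsrbohB (LOC4326027) had 161, 1004 and 93.5 (egg), 15.5, 123 and 11.8 (fertilized egg) and 285, 429 and 45.1 (zygote). Its replicates differed widely within each stage, with egg replicate 2 the highest array of all, and the stages overlapped. OsTrx1, the SET domain gene, had 3737, 2972 and 4492 (egg), 3681, 3554 and 1852 (fertilized egg) and 2460.2, 1384 and 3386 (zygote), again with overlap. A second probe set of OsTrx1 had the opposite sign, at 0.57 against -0.35 between fertilized egg and egg. Between zygote and egg the second set had 0.78 against -0.70.

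The naming rule left out 36 members that passed the filter, among them OsTrx1, which was given above with its values already seen. It takes every member called with or without array weights, so by the rule itself none of the 36 was called. Their log2 differences lay between -0.67 and 1.90 for fertilized egg against egg, between -1.95 and 0.87 for zygote against fertilized egg and between -1.60 and 0.95 for zygote against egg, and were under 1 in size in 35, 34 and 35 of them. Stages overlapped in 33, 35 and 34 of the 36, but the rule had already taken the largest differences without overlap. Over all genes, with no such choice, the arrays were fully apart in 14.1% (higher) and 12.3% (lower) in the first comparison. These shares were 5.6% and 8.08% in the second and 10.6% and 10.4% in the third. The members with a size of 1 or more, named here after their values were seen, were the dim transferase GST-I in the first comparison, GST-I and the peroxiredoxin PRXIIE-2 in the second and the glutaredoxin GRXS3 in the third. At an unadjusted p under 0.05, the reductase MDAR5 differed in the second comparison and MDAR5 and GRXS3 in the third. MDAR5 had 4882, 4215 and 3805 (egg), 6313, 3323 and 2592 (fertilized egg) and 2022, 2646 and 2198 (zygote), with all zygote arrays below all egg arrays but not below all fertilized egg arrays.

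Genes read by several probe sets gave a check within the array. Of 14 members with 2 or more probe sets above the filter, the sign of the log2 difference was the same in all sets in 8 between fertilized egg and egg, in 5 between zygote and fertilized egg and in 4 between zygote and egg. In those 8, the fertilized egg lay above the egg in all 4 sets of APX2, all 3 of PRXIIC and both of gst2, OsTrxh1 and GRXS4, and below it in all 3 sets of catA and both of sodA and OsTrxm5. Of the 68 probe sets used, 9 carry the suffix for probes shared by several transcripts and 4 (OsPDIL2-3, OsTrxm5, catA and gst2) the suffix for probes that may match other transcripts in part.

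**Figure D4:**
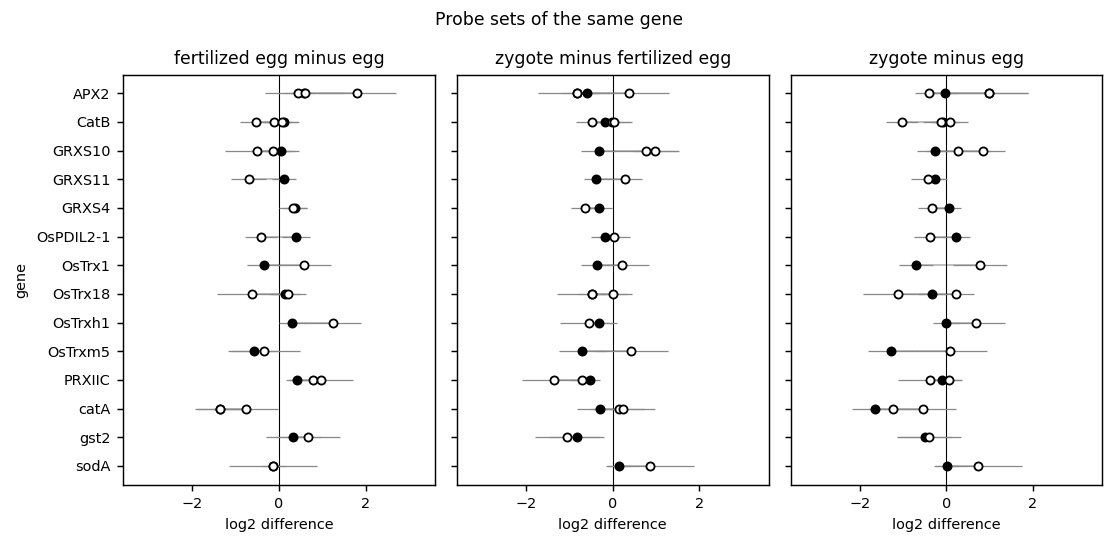
Log2 difference (horizontal axis) of every probe set above the filter for the 14 members with several, 1 gene per row; the black point is the set used elsewhere, open points are the further sets, and bars give the SE. The sets of a gene often lie on both sides of 0, with the same sign in 8, 5 and 4 of 14 genes in the panels from left to right.

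A list of neighbouring redox genes was looked at beside the members. It held thioredoxin reductases, chaperones of the endoplasmic reticulum, the oxidase genes OsQSOX1 and AOX1, and the genes FTR-B and bas1. Enzymes of glutathione and ascorbate synthesis, methionine sulfoxide reductases, metallothioneins and a glyoxalase were also on the list. Of its 28 genes 26 passed the filter, and none was called in any comparison. The log2 difference was above 0 in 21 of 26 between fertilized egg and egg, 7 of 26 between zygote and fertilized egg and 13 of 26 between zygote and egg, with medians of 0.23, -0.22 and -0.01; of all genes 50.8%, 44.8% and 45.5% were above 0. With array weights 2 of 26 were called higher in fertilized eggs than in eggs, beside 1.99% of all probe sets, both methionine sulfoxide reductases, which repair oxidized methionine. MSRA4 had 906, 1112 and 745 (egg), 1808, 2233 and 3786 (fertilized egg) and 1659, 1049.7 and 2762 (zygote) (adjusted p = 0.00956 with weights, 0.367 without). MSRA2-1 had 1475, 2448 and 1764 (egg), 3422, 3027 and 3146 (fertilized egg) and 1378, 1147 and 2441 (zygote) (adjusted p = 0.0472 with weights, 0.543 without). In both the fertilized egg arrays lay above the egg arrays. The chaperone gene BIP1 had 10109.9, 15654 and 11163, then 21014, 15785 and 29496, then 10349.8, 10221 and 22783 in the same order of stages, the glyoxalase gene GLYI-11 19232, 22326 and 16313, then 26159, 23290.0 and 55914, then 27114, 27830.2 and 41500.1, and the metallothionein gene MT2C 11435, 30703 and 15014, then 11054, 8549 and 6592, then 12089, 25990.2 and 31711.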

How the data were processed

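Each deposited value is a linear signal intensity of 1 probe set on 1 array, which the authors computed, per the submitters' processing notes, with the MAS5 algorithm. No version of it is given in the sources used here. Trimming 2 percent from both tails left every array with a mean of 500, so scaling had already been applied. Of 57381 probe sets, 123 control and 64 reporter sets were left out, leaving 57194. The platform annotation gave 1 gene for 22436 of them, several for 95 and none for 34663, and the RefSeq gene table (assembly ASM3414082v1), used for names only, held all 17905 genes.

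Signals were turned into log2(signal + 15), with an offset at the 25th percentile of the table. The filter left the 28597 probe sets whose mean was not below the median, which cover 15342 genes. All 9 arrays entered 1 limma fit of stage means (version 3.58.1 under R 4.3.3; lmFit, then eBayes with an intensity trend) without further normalization, with Benjamini-Hochberg adjustment over all kept probe sets and a threshold of 0.05. Python 3.11.15 with pandas 2.3.3 made the tables and matplotlib 3.10.9 the figures. The fit was tested on simulated data. The number of arrays, 3 for each stage, limits the precision, and the labels call them biological replicates without saying that plants were separate.

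The members, classes and lists were chosen with earlier results of these data known. Genes were named by a rule: the 3 brightest members of each class, every member past the threshold with or without array quality weights, and in each comparison the 6 largest rises and 6 largest falls among members whose stages did not overlap. Replicate numbers were checked for pairing: correlations of same-numbered arrays' deviations from their stage means ran from -0.22 to 0.14, so the numbers were not used to pair arrays. No sequence or coordinate is given. The alternatives tried were 19 planned and 1 added after the data were seen, the log2 ratio of poly-A to hybridization spikes as a covariate.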

Additional observations from a re-analysis of the deposited data

How the results depend on the processing

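Over 20 alternatives, the 30 log2 differences followed gave 600 values, of which 569 kept direction and side of the threshold, 16 lost the call, 14 gained one and 1 reversed, GRXC6 between zygote and egg, at -0.54 after quantile normalization; these causes were not tested. Of 1320 values for the 66 other differences of named genes, 85 changed sign. The count of 0 members called over the 3 stages became 7 with array quality weights, 3 with the spike ratio in the model, and 0 to 1 when single replicates were left out (1, GST-II, without zygote replicate 2). The count of 0 between fertilized egg and egg became 6 with weights, 1 (GST-II) after quantile normalization or with only the 6 arrays compared, 3 (MDAR2, OsTrx20 and SODCC.1) with the spike ratio, and 0 to 1 when single replicates were left out (1, GST-II, without zygote replicate 1 or 2). The count of 0 between zygote and fertilized egg became 1 (OsTrx20) with the spike ratio. The count of 1 between zygote and egg became 0 with an offset of 1, no filter on low values, quantile normalization, median centring, no trend in eBayes or only the 6 arrays compared, 2 with weights, 2 (OsTrx14 and SODCC.1) with the spike ratio, and 0 to 1 when single replicates were left out (1 only without zygote replicate 1). With the replicate number as a block it was 0 (OsPDIL2-3 at an adjusted p of 0.101), and the block changed no other call. The median of the members between zygote and egg was -0.38 with the spike ratio. The spike ratio did not overlap between egg and the later stages, so differences from the egg in that fit are extrapolated, as between fertilized egg and egg in OsTrx20 (5.86), MDAR2 (-3.34) and APX1 (0.71); between fertilized egg and zygote, where it overlapped, OsTrx20 had -2.90 (adjusted p = 0.00761). Median centring moved the median of all genes to -0.24 between zygote and fertilized egg and -0.23 between zygote and egg. With 3 arrays a stage and log2 differences whose SE was mostly 0.25 to 0.84, only large differences can pass; signals near the offset of 15, as in GRXC3, have little order.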
